A study of Mus musculus with 15 samples.

Results

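Transcript levels were compared between cortical neurons and cortical astrocytes of the mouse. The comparison used 10 of the 15 libraries of the series, 5 labelled neuron and 5 labelled astrocyte. Its members are all genes of the deposited table at 1 TPM (the share of transcripts, scaled to 1000000 in each library) or more in at least 5 of these 10 libraries, which kept 12837 of 20610 genes. All animals were wild-type (WT) males at postnatal day 28 (P28), and no transgene, deletion or treatment is listed for either group. Cells were taken from the cortex by magnetic isolation, and polyA RNA was sequenced. The labels do not tie a library to an animal, so the p-values measure the spread between libraries, which may be technical.

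Neurons carry electrical and secretory signals along axons and dendrites built on a specialised cytoskeleton of tubulins, neurofilaments and stathmins. Astrocytes take up the glutamate, GABA and potassium that neurons release, store glycogen, make serine, glutamine and lipids for their neighbours, and cover the blood vessels with their endfeet. The vessels themselves are lined by endothelial cells, which form the blood-brain barrier, and are wrapped by contractile smooth muscle cells on arteries and by pericytes on capillaries.

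Neuronal markers were highest in the libraries labelled neuron, but these libraries also held abundant vascular transcripts. The summed level of 5 neuronal markers (Snap25, Stmn2, Rbfox3, Tubb3 and Syt1) was 702, 528, 959, 811 and 1330 TPM in neuron libraries 1 to 5 and 94.5, 163, 52.1, 81.5 and 103 TPM in astrocyte libraries 1 to 5. The summed level of 5 astrocyte markers (Aldoc, Slc1a3, Aqp4, Gja1 and Aldh1l1) was 102, 231, 85.3, 96.2 and 219 TPM in the neuron libraries and 18828, 17223, 19882, 20088 and 20628 TPM in the astrocyte libraries. Neither pair of ranges overlapped, and none of the 10 markers was at 0 in any library of the other group. The 5 endothelial markers (Cldn5, Pecam1, Cdh5, Flt1 and Tek) summed to 1213 to 2255 TPM in the neuron libraries, more than the neuronal markers in each of them, and to 145 to 283 TPM in the astrocyte libraries. The 5 mural cell markers, for smooth muscle cells and pericytes, summed to 914 to 2281 TPM against 228 to 358 TPM. Acta2, smooth muscle actin, made up most of that sum in the neuron libraries. By the threshold given below, Acta2 and Myh11 were called higher in the neuron libraries, and Pdgfrb, Rgs5 and Kcnj8 were not called. Alas2, which starts heme synthesis in erythroid cells, stood at 188 to 991 TPM against 4.15 to 10.3 TPM. Microglia markers summed to 15.7 to 30.2 TPM in the neuron libraries and 39 to 56.7 TPM in the astrocyte libraries. The 4 ependymal markers (Foxj1, Tmem212, Ccdc153 and Rarres2) summed to 509.3 to 898.5 TPM in the neuron libraries and 706.7 to 1305 TPM in the astrocyte libraries. The groups below are called neuron and astrocyte libraries after their labels. In bulk RNA such as this, fewer cells of a type and less RNA per cell cannot be told apart.

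**Figure D1:**
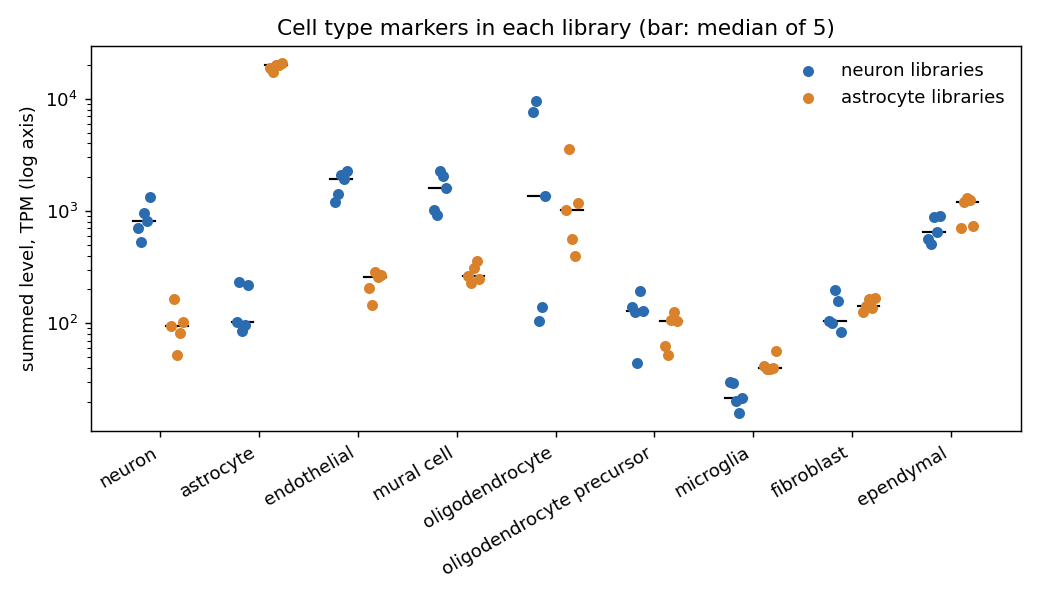
Summed level of each marker list in TPM on a log axis, with 1 point per library, blue for the 5 neuron and orange for the 5 astrocyte libraries and a bar at the median of 5. The neuron and astrocyte markers separate the groups, the endothelial markers sit between 1213 and 2255 TPM in neuron libraries against 145 to 283 TPM in astrocyte libraries, and oligodendrocyte markers spread from 105 to 9546 TPM within the neuron libraries.

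The series title concerns DNA methylation. CG dinucleotides are among the sites where it can occur, and the promoters of the cell type markers differ in how many they hold. Only CG was counted here. The 250 bases before the RefSeq start of 1 neuronal, 1 astrocyte and 1 endothelial marker are shown for that reason, on GRCm38.p6 from RefSeq, 5′ to 3′ on the gene's strand, with each CG in capitals. Tubb3 encodes the neuronal beta tubulin (chr8:123411303-123411552, + strand), Slc1a3 the astrocyte glutamate transporter GLAST (chr15:8710808-8711057, − strand) and Cldn5 the main claudin of the blood-brain barrier (chr16:18776597-18776846, + strand).
Tubb3: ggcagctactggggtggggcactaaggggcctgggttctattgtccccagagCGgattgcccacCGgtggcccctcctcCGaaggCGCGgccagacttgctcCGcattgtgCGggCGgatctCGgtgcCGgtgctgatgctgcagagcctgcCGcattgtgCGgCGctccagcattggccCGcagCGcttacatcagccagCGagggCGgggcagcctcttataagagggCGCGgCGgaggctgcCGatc
Slc1a3: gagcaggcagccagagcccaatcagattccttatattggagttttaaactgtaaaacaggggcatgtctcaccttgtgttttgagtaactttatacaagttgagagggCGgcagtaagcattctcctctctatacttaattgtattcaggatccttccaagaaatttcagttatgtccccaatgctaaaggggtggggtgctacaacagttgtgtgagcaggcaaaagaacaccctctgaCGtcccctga
Cldn5: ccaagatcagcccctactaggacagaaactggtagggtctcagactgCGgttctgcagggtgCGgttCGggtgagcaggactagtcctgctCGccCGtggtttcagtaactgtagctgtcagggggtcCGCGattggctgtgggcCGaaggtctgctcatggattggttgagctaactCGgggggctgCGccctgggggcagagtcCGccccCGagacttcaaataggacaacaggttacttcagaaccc
The Tubb3 stretch held 21 CG, the Cldn5 stretch 12 and the Slc1a3 stretch 2. The ratio of observed to expected CG, the number of CG times the length over the product of the C and G counts, was 0.73, 0.55 and 0.16 in that order.

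Of the 12837 tested genes, 1734 (13.5%) were called higher in the neuron libraries and 1693 (13.2%) higher in the astrocyte libraries. The counts of each gene list below are to be read against these shares. A call needed an adjusted p below 0.05 in limma and a log2 difference of at least 1, that is 2-fold on the log2(TPM + 1) scale. This scale understates the change of genes with few transcripts. The groups of 5 did not overlap for 3168 called genes (24.7% of those tested). These were 1562 of the 1734 called higher in the neuron libraries and 1606 of the 1693 called higher in the astrocyte libraries. A lack of overlap was thus common to most called genes and does not set apart those named below. A further 3641 genes passed the p threshold with differences under 2-fold. The median log2 difference of all tested genes, neuron minus astrocyte, was -0.03.

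Large differences were mostly in the astrocyte direction, although the numbers called were close. At 8-fold or more, 49 genes were higher in the neuron libraries and 262 in the astrocyte libraries. At 32-fold or more the numbers were 1, Alas2, and 56. At 64-fold or more they were 0 and 14. No gene stood at 10 TPM or more in all 5 neuron libraries and under 1 TPM in all 5 astrocyte libraries, while 20 genes showed the reverse. Genes called higher in the neuron libraries made up 37.2% to 40.9% of all TPM there and 8.88% to 10% in the astrocyte libraries. Genes called higher in the astrocyte libraries made up 42.3% to 44.4% of all TPM there and 5.19% to 6.93% in the neuron libraries.

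**Figure D2:**
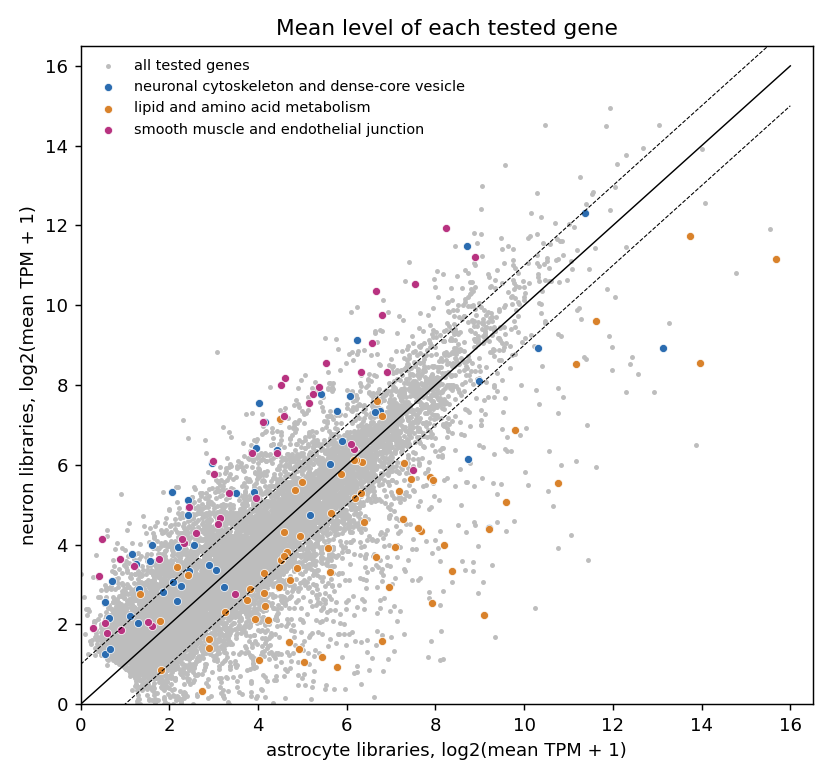
Mean level of each tested gene in the 5 astrocyte libraries (horizontal) and the 5 neuron libraries (vertical) as log2(mean TPM + 1), with the line of equal level and dashed lines at 2-fold. Lipid and amino acid genes (orange) lie mostly below the line, smooth muscle and endothelial junction genes (magenta) lie almost all above it, and neuronal cytoskeleton and dense-core vesicle genes (blue) lie mostly above it with a few exceptions below.

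Among the 20 genes that were on in the astrocyte libraries and off in the neuron libraries were Ppp1r3g, Chrdl1, Myoc, Cideb, Cyp4f14 and Slc14a1. Ppp1r3g, which targets a phosphatase to glycogen, stood at 0, 0.34, 0.02, 0.03 and 0.28 TPM in neuron libraries 1 to 5 and at 94.9, 73, 121, 94.5 and 102 TPM in astrocyte libraries 1 to 5 (log2 difference -6.43 ± 0.18 SE, adjusted p = 8.93e-14 in limma). Chrdl1, a secreted BMP antagonist, ranged from 0.12 to 0.40 TPM against 32 to 88.1 TPM. Myoc, which encodes myocilin, ranged from 0 to 0.20 TPM against 21.5 to 58.9 TPM. All 20 were under 1 TPM in every neuron library by the rule that picked them. Cideb, a lipid droplet protein, lay at 0.50 to 0.92 TPM against 63.1 to 80 TPM. Cyp4f14, a fatty acid hydroxylase of the cytochrome P450 family, lay at 0.09 to 0.49 TPM against 41.5 to 58.1 TPM. The urea transporter Slc14a1 lay at 0.09 to 0.69 TPM against 31.2 to 60.5 TPM. Among the genes with the widest gaps, Ntsr2 (chr12:16653382-16660227, + strand, GRCm38), a neurotensin receptor, stood at 3.44 to 23.4 TPM against 2471 to 3096 TPM, a log2 difference of -8.06 ± 0.33. Cldn10, a claudin that forms ion pores, stood at 1.53 to 8.85 TPM against 1065 to 1332 TPM (-7.97 ± 0.25). Hsd11b1, which regenerates active glucocorticoid, stood at 4.20 to 7.13 TPM against 408 to 544 TPM (-6.19 ± 0.15).

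Among the most abundant transcripts called higher in the neuron libraries were Bsg, Tmsb4x, Ly6a and Mgp. Bsg, a chaperone of lactate transporters that is abundant in brain endothelium, stood at 30841, 31436, 32355, 37115 and 26654 TPM in the neuron libraries and at 3666, 2894, 4320, 4449 and 4160 TPM in the astrocyte libraries (log2 difference 3.03 ± 0.16, adjusted p = 1.51e-10). Tmsb4x, an actin-sequestering thymosin, lay at 21962 to 25009 TPM against 3188 to 3907 TPM. Ly6a, a surface protein of endothelial cells, lay at 10476 to 12914 TPM against 653 to 838 TPM, and its reads may be shared with near-identical Ly6 genes. Mgp, an inhibitor of calcification made by arterial endothelium, lay at 5059 to 13235 TPM against 419 to 604 TPM. In the astrocyte direction, Apoe, the lipid carrier of the brain, reached 48007 to 56825 TPM against 1637 to 2652 TPM. Cst3, a secreted protease inhibitor, reached 41295 to 52091 TPM against 3230 to 4530 TPM. The groups did not overlap for any of these 6 genes.

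**Figure D3:**
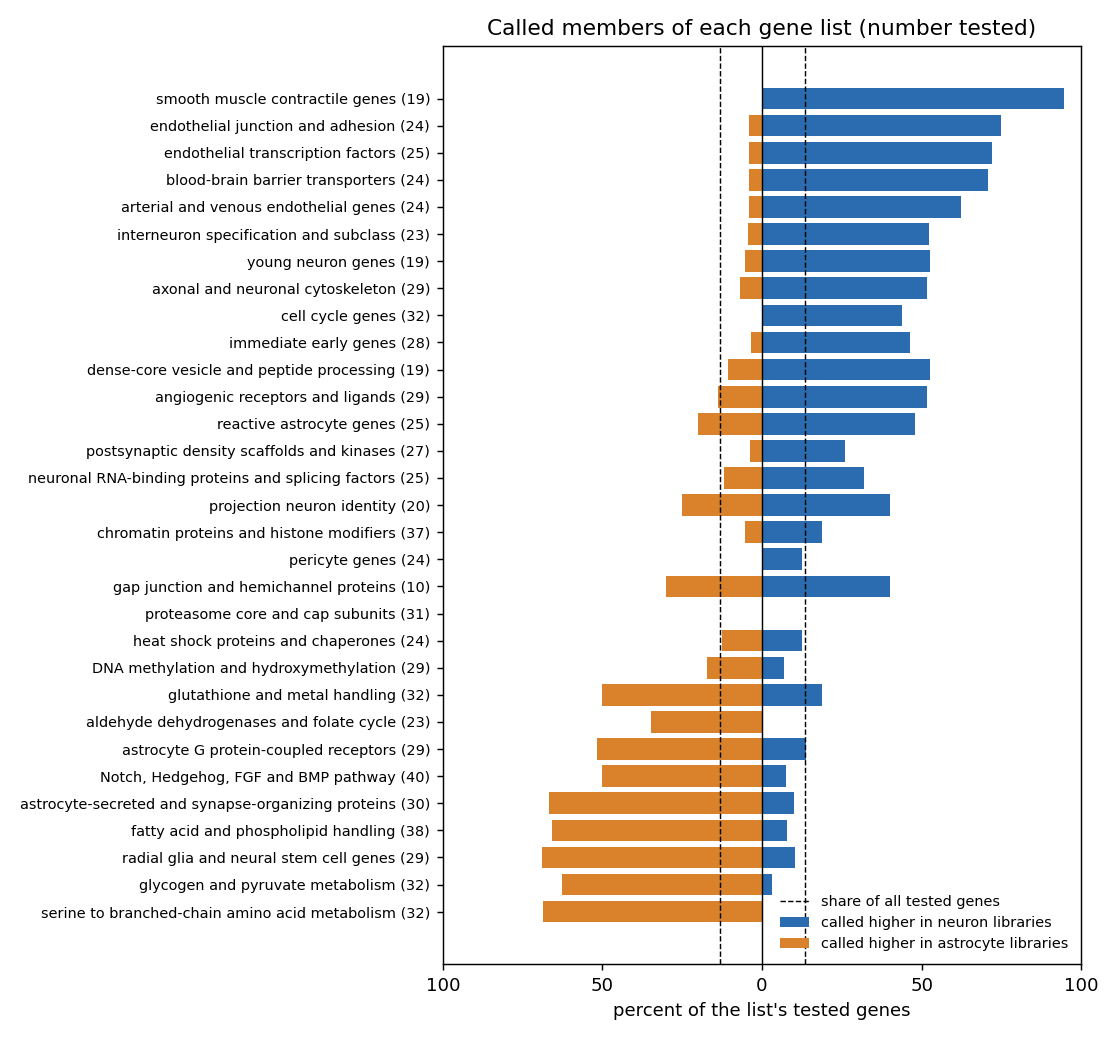
Percent of each gene list's tested members called higher in the neuron libraries (blue, to the right) and in the astrocyte libraries (orange, to the left), with the number tested in parentheses and dashed lines at the shares of all tested genes (13.5% and 13.2%). Smooth muscle genes (18 of 19) and amino acid metabolism (22 of 32) stand at the ends, and no proteasome subunit was called.

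Stathmins, Map1b and Tubb3 were higher in the neuron libraries, and a pair of other beta tubulins was lower. Of 29 tested genes of the axonal and neuronal cytoskeleton, 15 were called higher in the neuron libraries (51.7%, against 13.5% of all tested genes), 2 higher in the astrocyte libraries and 12 were not called, with a median log2 difference of 1.39. Stmn1, a microtubule-destabilising stathmin, stood at 2912, 1997, 2860, 2948 and 3666 TPM in the neuron libraries and at 389, 526, 366, 381 and 430 TPM in the astrocyte libraries (log2 difference 2.77 ± 0.16, adjusted p = 4.17e-10). Stmn3 and Stmn4 had log2 differences of 2.86 ± 0.22 and 3.11 ± 0.21, so all 4 stathmins were called. Map1b, a microtubule-associated protein of growing axons, stood at 78.7, 68.7, 93.7, 81.7 and 103 TPM against 13.7, 16.9, 13.4, 12.4 and 15.7 TPM (2.48 ± 0.15, adjusted p = 6.68e-10). No library of either gene fell within the range of the other group. Tubb3 stood at 80.5 to 173 TPM against 9.73 to 25.5 TPM (2.94 ± 0.23). Tubb2b, another beta tubulin, showed the opposite order, with 71.2, 59.9, 58.4, 89 and 70.3 TPM in the neuron libraries and 503, 378, 387, 490 and 355 TPM in the astrocyte libraries (-2.58 ± 0.15, adjusted p = 3.54e-10). Tubb2a also stood lower in the neuron libraries (-1.44 ± 0.20). Reads of tubulin paralogues can be shared, which makes the split among them uncertain. The dendritic protein Map2 had a log2 difference of -0.47 ± 0.22 (adjusted p = 0.0829) and the axonal protein Mapt one of 0.36 ± 0.16 (adjusted p = 0.0738), and both groups overlapped for each.

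Cargo and processing enzymes of dense-core vesicles, which release neuropeptides, divided between the groups. Of 19 tested genes, 10 were called higher in the neuron libraries and 2 higher in the astrocyte libraries, with a median log2 difference of 1.02. Chgb, a granin that packs peptides, stood at 28.8, 19.1, 48.6, 34.7 and 62.2 TPM in the neuron libraries and at 2.73, 3.83, 3.65, 2.7 and 3.0 TPM in the astrocyte libraries (log2 difference 3.14 ± 0.26, adjusted p = 2.76e-08). Scg2, another granin, stood at 12.9 to 55.6 TPM against 3.75 to 5.32 TPM (2.54 ± 0.29). Pcsk2, a prohormone convertase, stood at 4.81 to 13.7 TPM against 1.10 to 1.66 TPM (2.20 ± 0.25). The convertase partner Cpe, carboxypeptidase E, went the other way at 413, 438, 481, 451 and 641 TPM in the neuron libraries and 9145, 9028, 8460, 9033 and 9179 TPM in the astrocyte libraries (-4.22 ± 0.14, adjusted p = 3.71e-13). Scg3, a granin-binding sorting protein, stood at 16.6, 20.2, 19.4, 20.8 and 24.8 TPM against 634, 504, 653, 582 and 596 TPM (-4.81 ± 0.13, adjusted p = 6.79e-14). As a sum the list was lower in the neuron libraries (844 to 1248 TPM) than in the astrocyte libraries (9296 to 10005 TPM), against the sign of its median.

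Genes of interneuron identity were mostly higher in the neuron libraries. For interneuron specification and subclass, 12 of 23 tested genes were called higher in the neuron libraries and 1 lower, with a median log2 difference of 1.30. Dlx5, a homeobox factor of interneuron precursors, stood at 8.15, 5.72, 8.47, 9.84 and 8.18 TPM in the neuron libraries and at 0.16, 0.32, 0.42, 0.17 and 0 TPM in the astrocyte libraries (log2 difference 2.90 ± 0.18, adjusted p = 9.89e-10). Lamp5, a marker of neurogliaform interneurons, stood at 21.1 to 63.6 TPM against 1.22 to 5.16 TPM (3.28 ± 0.31). Vip, a neuropeptide of another interneuron class, stood at 8.05 to 29.5 TPM against 0.32 to 1.31 TPM (3.06 ± 0.30). Sst, somatostatin, stood at 91, 128, 93.8, 99.8 and 367 TPM against 13.9, 17.9, 2.77, 11.2 and 21.5 TPM (3.43 ± 0.43), and neuron library 5 lay far above the other 4. Gad2, a GABA-synthesizing enzyme, had a log2 difference of 2.48 ± 0.23. Parvalbumin, Pvalb, stood at 2.57 to 23.5 TPM against 3.61 to 9.49 TPM and was not called (0.49 ± 0.42, adjusted p = 0.341). Nr2f1, a factor of caudal interneurons and of cortical patterning, was higher in the astrocyte libraries (-1.05 ± 0.18) but lay under 2-fold without neuron library 1 (-0.98) or neuron library 4 (-0.99).

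Among projection neuron identity genes, 8 of 20 tested were called higher in the neuron libraries and 5 higher in the astrocyte libraries, with a median log2 difference of 0.84. Neurod6, a factor of glutamatergic cortical neurons, stood at 11, 7.12, 13.8, 9.67 and 19.4 TPM in the neuron libraries and at 0.84, 2.09, 0.55, 0.69 and 1.26 TPM in the astrocyte libraries (log2 difference 2.64 ± 0.26, adjusted p = 2.3e-07). Mef2c, an activity-dependent factor also made by other brain cells, stood at 89.5 to 190 TPM against 18.9 to 31.4 TPM (2.69 ± 0.20). Rorb, the layer 4 marker, stood at 1.24, 1.16, 0.97, 0.92 and 1.59 TPM in the neuron libraries and at 14.7, 11.4, 25.6, 17.9 and 19.9 TPM in the astrocyte libraries (-3.08 ± 0.21, adjusted p = 3.51e-09). Fezf2, a layer 5 factor, stood at 1.03 to 2.69 TPM against 10.1 to 16.9 TPM (-2.36 ± 0.21). Crym and Emx2 had log2 differences of -2.98 ± 0.21 and -2.24 ± 0.19, and Sox5 one of -1.30 ± 0.19. The groups did not overlap for any of these 7 genes. Emx2 and Sox5 are also known from radial glia and glia.

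Genes of young neurons were called higher in the neuron libraries for 10 of 19 tested and higher in the astrocyte libraries for 1, Tubb2b, with a median log2 difference of 1.46. Dcx, doublecortin of migrating neurons, was low in all libraries, at 6.42, 2.50, 4.58, 6.58 and 4.66 TPM in the neuron libraries and 0.30, 0.27, 0.78, 0.52 and 0.49 TPM in the astrocyte libraries (log2 difference 1.97 ± 0.21, adjusted p = 7.73e-07). Igfbpl1, a secreted protein of immature neurons, stood at 8.17 to 13.2 TPM against 0.51 to 1.63 TPM (2.50 ± 0.20). Tmsb10, an actin-binding thymosin, stood at 728 to 983 TPM against 112 to 169 TPM (2.57 ± 0.14). Cd24a, a surface protein of young neurons, stood at 54.4 to 107 TPM against 15.5 to 33.5 TPM (1.64 ± 0.22). All 4 separated the groups, while Sox11 missed the 2-fold threshold with a log2 difference of 0.94 ± 0.19.

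RNA-binding proteins of neurons were called higher in the neuron libraries for 8 of 25 tested genes and lower for 3, with a median log2 difference of 0.56. Rbfox1, a splicing regulator, stood at 21.3, 25.3, 31.9, 28.4 and 41.8 TPM in the neuron libraries and at 6.38, 9.32, 4.21, 4.47 and 7.49 TPM in the astrocyte libraries (log2 difference 2.07 ± 0.22, adjusted p = 7.65e-07). Rbfox2 and Rbfox3 had log2 differences of 2.00 ± 0.20 and 1.61 ± 0.28. Those higher in the astrocyte libraries were Msi2, a translation regulator of neural stem cells (-1.47 ± 0.22), Cpeb1, a polyadenylation factor (-1.34 ± 0.30, and -0.82 without the libraries numbered 1 and 2), and Qk, the quaking splicing factor of glia (-1.25 ± 0.17). None of the polypyrimidine tract-binding genes Ptbp1, Ptbp2 and Ptbp3 was called.

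Scaffolds and kinases of the postsynaptic density were called higher in the neuron libraries for 7 of 27 tested genes (25.9%, against 13.5% of all). The median log2 difference was 0.46. Camk2b, a calcium-dependent kinase, stood at 27.9, 19.7, 22.5, 23.6 and 39 TPM in the neuron libraries and at 5.41, 8.58, 2.78, 2.95 and 6.74 TPM in the astrocyte libraries (log2 difference 2.19 ± 0.26, adjusted p = 2.78e-06). Its partner Camk2a spread more widely, at 225, 260, 16.6, 19.5 and 137 TPM against 36.5, 54.2, 11.7, 26 and 30.2 TPM, and was not called (1.41 ± 0.66, adjusted p = 0.079). Dlgap1, a scaffold of excitatory synapses, was higher in the astrocyte libraries at 38.2 to 85.4 TPM against 17.1 to 29 TPM (-1.47 ± 0.20). Dlg4, which encodes PSD-95, stood at 2.40 to 8.28 TPM against 6.43 to 16.1 TPM in the astrocyte libraries and lay just under the 2-fold threshold (-0.99 ± 0.29, adjusted p = 0.00925).

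Amino acid synthesis and breakdown was higher in the astrocyte libraries. Of 32 tested genes of serine, glycine, glutamate and branched-chain amino acid metabolism, 22 were called higher there (68.8%, against 13.2% of all tested genes) and 0 higher in the neuron libraries, with a median log2 difference of -1.64. Phgdh, the first enzyme of serine synthesis, stood at 18.6, 20.3, 18.2, 27.2 and 14.8 TPM in the neuron libraries and at 592, 546, 667, 579 and 569 TPM in the astrocyte libraries (log2 difference -4.85 ± 0.15, adjusted p = 1.9e-13). The next enzymes of the same route, Psat1 and Psph, had log2 differences of -3.38 ± 0.17 and -2.65 ± 0.13. Cbs, which joins serine and homocysteine, stood at 1.22, 3.93, 1.62, 1.63 and 1.68 TPM against 88.6, 81.5, 149, 126 and 109 TPM (-5.24 ± 0.22, adjusted p = 9.65e-12). Cth, which releases cysteine in the next step, had one of -4.88 ± 0.19. Gldc, of the glycine cleavage system, stood at 0.88 to 2.44 TPM against 18.5 to 41.4 TPM (-3.52 ± 0.23), and Prodh, which breaks down proline, had a log2 difference of -4.06 ± 0.17. The groups did not overlap for these 7 genes. Not every serine enzyme differed in this way. Srr, which converts L-serine to D-serine, stood at 16.9 to 25.1 TPM against 20.1 to 27.6 TPM and was not called (-0.26 ± 0.16, adjusted p = 0.175), nor was Shmt1 (0.27 ± 0.24, adjusted p = 0.362). In the list of aldehyde dehydrogenases and folate enzymes, 8 of 23 were higher in the astrocyte libraries and 0 higher in the neuron libraries, led by Aldh1l1 at 0.68 to 2.43 TPM against 79.8 to 118 TPM (-5.44 ± 0.20).

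Fatty acid and phospholipid handling followed the same direction, with 25 of 38 tested genes called higher in the astrocyte libraries and 3 higher in the neuron libraries (median log2 difference -1.87). Acsbg1, an acyl-CoA synthetase, stood at 2.13, 7.72, 2.24, 2.69 and 3.95 TPM in the neuron libraries and at 557, 455, 620, 534 and 581 TPM in the astrocyte libraries (log2 difference -6.96 ± 0.23, adjusted p = 4.57e-13). Another synthetase, Acsl6, which prefers docosahexaenoic acid, had a log2 difference of -5.42 ± 0.19. Plpp3, which dephosphorylates lysophosphatidic acid, stood at 35.4, 39.3, 53.2, 57.6 and 43.8 TPM against 1733, 1101, 2152, 1994 and 1723 TPM (-5.20 ± 0.18, adjusted p = 8.04e-13). Slc27a1, a fatty acid transporter, had a log2 difference of -5.00 ± 0.19. Of the enzymes that lengthen or desaturate fatty acids, Elovl1 and Elovl4 were not called, while those called higher in the astrocyte libraries included Elovl2 at 0.77 to 1.41 TPM against 16.6 to 46.5 TPM (-3.92 ± 0.24) and Fads2 at 12.6 to 17.4 TPM against 202 to 359 TPM (-4.17 ± 0.16). The 3 exceptions were Fabp3, the fatty acid-binding protein known from muscle and neurons, at 108 to 176 TPM against 12.5 to 33.1 TPM (2.75 ± 0.24), Lpl, the lipoprotein lipase (1.33 ± 0.25), and Acsl5, another acyl-CoA synthetase (1.26 ± 0.23).

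Glycogen genes were higher in the astrocyte libraries, the cell type that holds most brain glycogen. Of 32 tested genes of glycogen and pyruvate metabolism, 20 were called higher there and 1 higher in the neuron libraries, with a median log2 difference of -1.43. Phkg1, the catalytic subunit of phosphorylase kinase, stood at 0.97, 2.22, 1.66, 2.38 and 1.81 TPM in the neuron libraries and at 94, 69.7, 126, 117 and 96.4 TPM in the astrocyte libraries (log2 difference -5.17 ± 0.20, adjusted p = 2.28e-12). The glycogen phosphorylases Pygb and Pygm had log2 differences of -3.59 ± 0.18 and -2.77 ± 0.21. Pgm1 and Ugp2, which feed glucose into glycogen, were also called higher in the astrocyte libraries, Pgm1 at 141 to 187 TPM against 8.48 to 13.7 TPM. Lactate dehydrogenase subunits differed: Ldhb stood at 298 to 530 TPM against 2585 to 2815 TPM (-2.76 ± 0.15), while Ldha stood at 683 to 866 TPM against 504 to 709 TPM and was not called (0.33 ± 0.13). The lactate transporter Slc16a1, which brain endothelium also carries, was higher in the neuron libraries at 53.2 to 166 TPM against 24.3 to 67.8 TPM (1.23 ± 0.29, adjusted p = 0.00169), with overlapping groups, and was not called without the libraries numbered 1 and 2 (0.90).

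Metallothioneins, a zinc importer and a cystine importer were higher in the astrocyte libraries. Of 32 tested genes of glutathione and metal handling, 16 were called higher in the astrocyte libraries and 6 higher in the neuron libraries, with a median log2 difference of -0.86. Slc39a12, a zinc importer, stood at 0.66, 1.39, 1.72, 0.95 and 1.33 TPM in the neuron libraries and at 273, 206, 360, 306 and 280 TPM in the astrocyte libraries (log2 difference -7.01 ± 0.18, adjusted p = 4.29e-14). The metallothioneins Mt1, Mt2 and Mt3, small zinc- and copper-binding proteins, had log2 differences of -3.98 ± 0.16, -4.28 ± 0.18 and -3.77 ± 0.19. Prdx6, a peroxiredoxin with phospholipase activity, stood at 186 to 254 TPM against 7442 to 8197 TPM (-5.11 ± 0.12). The cystine importer Slc7a11 had one of -4.0 ± 0.20. Gpx1, a glutathione peroxidase, went the other way at 1540, 2033, 1661, 1805 and 1459 TPM against 338, 427, 307, 319 and 384 TPM (2.26 ± 0.14, adjusted p = 6.69e-10).

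Proteins that astrocytes secrete or use to shape synapses were called higher in the astrocyte libraries for 20 of 30 tested genes and higher in the neuron libraries for 3, with a median log2 difference of -2.59. Pla2g7, a secreted phospholipase that degrades platelet-activating factor, stood at 13.6, 17.5, 7.50, 12.5 and 18.9 TPM in the neuron libraries and at 1799, 1479, 1954, 1753 and 1672 TPM in the astrocyte libraries (log2 difference -6.91 ± 0.19, adjusted p = 6.79e-14). Clu, the chaperone clusterin, had a log2 difference of -5.46 ± 0.16, and the matrix proteoglycan Bcan had one of -4.91 ± 0.29. The phagocytic receptors Mertk and Megf10 were higher there too, Mertk at 36.5 to 79.2 TPM against 2.14 to 3.70 TPM (-3.79 ± 0.20) and Megf10 at 2.60 to 5.19 TPM against 0.06 to 0.16 TPM (-2.13 ± 0.17). Sparcl1 and Sparc, related matrix proteins with opposed effects on synapse formation, went opposite ways. Sparcl1 stood at 422, 398, 544, 622 and 491 TPM in the neuron libraries and at 4350, 3889, 4178, 3978 and 3740 TPM in the astrocyte libraries (-3.04 ± 0.14, adjusted p = 2.14e-11). Sparc, which endothelial cells and microglia also make, stood at 7679, 8139, 11745, 11642 and 8541 TPM against 2620, 2178, 2361, 2463 and 2528 TPM (1.95 ± 0.15, adjusted p = 2.07e-08). The other 2 genes higher in the neuron libraries were the neurotrophin Ntf3 (2.20 ± 0.23) and the matrix protein Tnr of oligodendrocytes and interneurons (1.16 ± 0.26, with overlapping groups, and 0.94 without the libraries numbered 1 and 2).

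The 3 FGF receptors described here and several BMP, Notch and Hedgehog genes were higher in the astrocyte libraries. Of 40 tested genes of the Notch, Hedgehog, FGF and BMP pathways, 20 were called higher there and 3 higher in the neuron libraries, with a median log2 difference of -1.12. The FGF receptor Fgfr3 stood at 1.68, 0.94, 1.23, 1.24 and 2.45 TPM in the neuron libraries and at 111, 79.8, 195, 134 and 143 TPM in the astrocyte libraries (log2 difference -5.71 ± 0.22, adjusted p = 3.58e-12). Fgfr2 and Fgfr1 followed at -3.33 ± 0.21 and -2.23 ± 0.19. The BMP receptor Bmpr1b stood at 0 to 0.47 TPM against 7.83 to 19.4 TPM (-3.57 ± 0.23), and the Notch feedback gene Nrarp at 4.99 to 11.1 TPM against 54.4 to 106 TPM (-3.37 ± 0.23). Hedgehog components were lower in level, with Gli3 at 0.39 to 0.53 TPM against 3.78 to 11.6 TPM (-2.53 ± 0.23) and the receptor Ptch1 at 0.84 to 1.82 TPM against 4.50 to 9.79 TPM (-1.77 ± 0.22). Higher in the neuron libraries were Id1, a BMP target (2.05 ± 0.21), Bmpr2, a BMP receptor that endothelium uses (1.42 ± 0.17), and Dll4, the Notch ligand of arterial endothelium (1.24 ± 0.23, and 0.97 without the libraries numbered 3 and 4).

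G protein-coupled receptors known from astrocytes were called higher in the astrocyte libraries for 15 of 29 tested genes and higher in the neuron libraries for 4, with a median log2 difference of -1.02. Gpr37l1, a prosaposin receptor, stood at 72.9, 68.2, 21.6, 83.6 and 56.9 TPM in the neuron libraries and at 2809, 2238, 3739, 3506 and 3346 TPM in the astrocyte libraries (log2 difference -5.77 ± 0.28, adjusted p = 4.16e-11). Grm3, a metabotropic glutamate receptor, stood at 3.43 to 6.15 TPM against 83.5 to 205 TPM (-4.84 ± 0.22). The adenosine receptor Adora2b and the endothelin receptor Ednrb had log2 differences of -3.42 ± 0.18 and -3.26 ± 0.26. Among the receptors in the other direction were Adgrl4, of endothelial cells, at 143 to 230 TPM against 12.4 to 37.2 TPM (2.75 ± 0.24), the neuropeptide Y receptor Npy1r (1.72 ± 0.25) and the dopamine receptor Drd1 (1.05 ± 0.20). Drd1 lay under 2-fold without astrocyte library 1 (0.95), astrocyte library 2 (0.98) or neuron library 3 (0.99).

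Genes of radial glia and neural stem cells, many of which astrocytes keep, were called higher in the astrocyte libraries for 20 of 29 tested. The median log2 difference was -1.93. Sox9, which specifies glia, stood at 2.15, 1.84, 2.92, 2.88 and 2.72 TPM in the neuron libraries and at 55.8, 34.8, 94.4, 82.9 and 72.8 TPM in the astrocyte libraries (log2 difference -4.24 ± 0.23, adjusted p = 2.28e-10). Rfx4, a winged-helix factor, stood at 0.31 to 0.84 TPM against 15.3 to 29.4 TPM (-3.85 ± 0.20). Lhx2, a homeobox factor, and Nr2e1, an orphan receptor of neural stem cells, had log2 differences of -3.49 ± 0.26 and -3.44 ± 0.20. The 3 members higher in the neuron libraries were the intermediate filaments Nes (1.62 ± 0.25) and Vim (1.61 ± 0.22) and the surface protein Prom1 (1.97 ± 0.16). Nes and Vim are also known from endothelial and mural cells, whose marker sums moved in the same direction, the mural sum mostly through Acta2. The part of those cells in the result was not tested.

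Genes of brain endothelium were higher in the neuron libraries. Of 24 tested blood-brain barrier transporters, 17 were called higher there (70.8%) and 1 higher in the astrocyte libraries, with a median log2 difference of 1.58. The drug pump Abcb1a stood at 43.9, 44.3, 67.8, 65.6 and 57.4 TPM in the neuron libraries and at 6.49, 6.58, 5.94, 6.27 and 6.49 TPM in the astrocyte libraries (log2 difference 2.93 ± 0.16, adjusted p = 2.34e-10). The glucose transporter Slc2a1 stood at 1096 to 2576 TPM against 182 to 307 TPM (2.64 ± 0.21). The exception was Slc38a3, a glutamine transporter that astrocytes also use, at 84 to 153 TPM against 171 to 292 TPM (-1.16 ± 0.18). Junction and adhesion genes were called higher in the neuron libraries for 18 of 24 tested, with a median log2 difference of 1.96. Cldn5, whose promoter is shown above, stood at 977 to 1983 TPM against 118 to 226 TPM (3.0 ± 0.21), and Podxl, a sialomucin of the vessel lumen, at 49 to 88.1 TPM against 5.13 to 8.57 TPM (3.10 ± 0.19). Vcam1, an adhesion molecule that astrocytes also make, was higher in the astrocyte libraries (-1.73 ± 0.27), and its groups overlapped through neuron library 3 at 117 TPM. Endothelial transcription factors were called higher for 18 of 25 tested, with a median of 1.79, among them Sox18 (2.60 ± 0.20), Fli1 (2.53 ± 0.22) and Sox17 (2.46 ± 0.20), while Foxo1 was higher in the astrocyte libraries (-1.09 ± 0.19; -0.98 without astrocyte library 3).

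The VEGF receptors Flt1 and Kdr were higher in the neuron libraries and the ligand Vegfa was higher in the astrocyte libraries. Of 29 tested genes, 15 were called higher in the neuron libraries and 4 higher in the astrocyte libraries, with a median log2 difference of 1.19. Flt1, a VEGF receptor of endothelium, stood at 158, 163, 218, 245 and 202 TPM in the neuron libraries and at 25.1, 15.3, 33.3, 33.9 and 33.1 TPM in the astrocyte libraries (log2 difference 2.80 ± 0.20, adjusted p = 6.77e-09). Kdr, the main signalling VEGF receptor, had a log2 difference of 1.71 ± 0.23. Vegfa, the ligand of both, stood at 3.05, 2.78, 2.06, 4.75 and 2.41 TPM against 45, 36.3, 78.9, 78.8 and 62 TPM (-3.90 ± 0.23, adjusted p = 6.72e-10). Apln, the ligand of the apelin receptor, stood at 1.60 to 5.77 TPM against 26.9 to 59.7 TPM (-3.40 ± 0.26). The other 2 ligands higher in the astrocyte libraries were Vegfb (-1.13 ± 0.34, with overlapping groups) and Bmp6 (-1.10 ± 0.22). Both lay under 2-fold when 1 library was left out, Vegfb without neuron library 3 (-0.89) or 4 (-0.88) and Bmp6 without astrocyte library 3 (-0.97). The PDGF ligand Pdgfb of endothelium was higher in the neuron libraries (2.42 ± 0.20). Genes of arterial and venous endothelium were called higher in the neuron libraries for 15 of 24 tested, with a median of 1.31, from both arterial Mgp (3.90 ± 0.22) and Gkn3 (2.59 ± 0.25) and venous Slc38a5 (2.49 ± 0.30), and the clotting factor Vwf had a log2 difference of 2.82 ± 0.23.

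Contractile genes of smooth muscle were the list with the largest share called among the 31, 18 of 19 tested genes (94.7%), all higher in the neuron libraries, with a median log2 difference of 2.47. The remaining gene, Synpo2, had 0.93 ± 0.22. Acta2, smooth muscle actin, stood at 813, 668, 1942, 1775 and 1318 TPM in the neuron libraries and at 89.8, 93, 90.7, 145 and 79.9 TPM in the astrocyte libraries (3.61 ± 0.26, adjusted p = 5.99e-09). Crip1, a LIM-domain protein, stood at 2560, 2510, 6437, 4619 and 3526 TPM against 371, 292, 286, 282 and 278 TPM (3.61 ± 0.22, adjusted p = 6.97e-10). The actin-binding proteins Cnn1 and Tagln had log2 differences of 3.56 ± 0.27 and 3.45 ± 0.25, and Cnn1 was near 0 in the astrocyte libraries (0.22 to 0.64 TPM). No gene of these 4 overlapped between the groups. As a sum the list stood at 5904, 5753, 14179, 11093 and 8675 TPM in the neuron libraries, lowest in libraries 1 and 2 and highest in 3 and 4, and at 1005 to 1313 TPM in the astrocyte libraries. The 250 bases before the starts of the pair with the largest differences are shown because these promoters differ in CG number from each other while their genes moved together, at chr19:34255374-34255623 on the − strand for Acta2 and chr12:113151762-113152011 on the + strand for Crip1.
Acta2: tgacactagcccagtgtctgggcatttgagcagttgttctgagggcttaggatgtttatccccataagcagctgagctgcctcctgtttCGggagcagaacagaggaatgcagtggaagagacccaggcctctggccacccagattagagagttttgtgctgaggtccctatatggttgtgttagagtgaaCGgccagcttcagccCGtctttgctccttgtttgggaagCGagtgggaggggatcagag
Crip1: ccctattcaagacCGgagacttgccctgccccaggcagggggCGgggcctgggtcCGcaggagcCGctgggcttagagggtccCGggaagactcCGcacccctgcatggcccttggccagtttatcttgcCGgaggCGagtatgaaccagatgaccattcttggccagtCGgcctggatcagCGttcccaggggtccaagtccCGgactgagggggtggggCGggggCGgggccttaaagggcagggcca
The Acta2 stretch held 4 CG, a ratio of observed to expected of 0.23, and the Crip1 stretch held 13, a ratio of 0.47.

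Pericyte genes did not share this pattern. Of 24 tested, 3 were called higher in the neuron libraries (12.5%, against 13.5% of all tested genes) and 0 higher in the astrocyte libraries, with a median log2 difference of 0.33. Vtn, vitronectin of brain pericytes, stood at 1176, 1557, 1764, 1799 and 1546 TPM in the neuron libraries and at 1233, 1390, 1865, 1689 and 1588 TPM in the astrocyte libraries (0.01 ± 0.15, adjusted p = 0.946), so the ranges were nearly the same. Pdgfrb, the receptor that recruits pericytes, stood at 8.51 to 16.2 TPM against 10.9 to 26.6 TPM (-0.53 ± 0.22, adjusted p = 0.0562). Kcnj8, a potassium channel subunit of pericytes, stood at 60.2 to 76.3 TPM against 45.1 to 72.5 TPM (0.23 ± 0.15, adjusted p = 0.224). The 3 called genes lay close to the threshold: Cspg4, the NG2 proteoglycan (1.23 ± 0.23), Higd1b (1.06 ± 0.15) and Ifitm1 (1.05 ± 0.13). Their number depended on single libraries, with 5 called without neuron library 1 and 1 called without neuron library 3. Without the libraries numbered 1 and 2 of both groups it was 5, and without those numbered 3 and 4 it was 1.

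Of 10 tested gap junction and hemichannel proteins, 4 were called higher in the neuron libraries (40.0%, against 13.5% of all tested genes) and 3 higher in the astrocyte libraries (30.0%, against 13.2%), with a median log2 difference of 0.67. The astrocyte connexins Gja1 and Gjb6 were higher in the astrocyte libraries, Gja1 at 24.8, 21.9, 42.8, 37.3 and 25.7 TPM against 1392, 908, 2229, 1854 and 1601 TPM (log2 difference -5.65 ± 0.22, adjusted p = 4.03e-12) and Gjb6 with -4.65 ± 0.20. Gjb2, known from meninges and astrocytes, had a log2 difference of -1.14 ± 0.21. The arterial connexins Gja4 and Gja5 were higher in the neuron libraries (1.43 ± 0.21 and 1.10 ± 0.19, the latter 0.96 without neuron library 3), as were the vascular connexin Gjc1 (1.37 ± 0.18) and the oligodendrocyte lineage connexin Gjc3 (1.69 ± 0.35, with overlapping groups, and 1.05 with an adjusted p of 0.057 in limma without the libraries numbered 1 and 2). The 3 other tested members, Gjb1, Panx1 and Panx2, were not called. Of the neuronal connexins, Gjd2 did not reach the level for testing.

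Several lists named for a cell state were also called, and their members are known from more than 1 cell type. Of 25 tested reactive astrocyte genes, 12 were higher in the neuron libraries and 5 in the astrocyte libraries, with a median log2 difference of 0.72. Lcn2, lipocalin, stood at 22.1, 22.2, 27.8, 8.98 and 21.1 TPM in the neuron libraries and at 2.39, 2.56, 2.16, 1.40 and 1.24 TPM in the astrocyte libraries (2.80 ± 0.26, adjusted p = 1.42e-07), and Timp1, a protease inhibitor, had 2.72 ± 0.30. Lcn2 and Vim are also expressed by endothelium. Gfap, the intermediate filament of astrocytes, was higher in the astrocyte libraries at 129 to 344 TPM against 0.93 to 1.68 TPM (-6.55 ± 0.23), as were Maob (-2.88 ± 0.16), C4b (-2.85 ± 0.18), Serpina3n (-1.90 ± 0.22) and Cd44 (-1.61 ± 0.25). Endothelial markers summed to 1213 to 2255 TPM in the neuron libraries against 145 to 283 TPM, and the part of endothelial RNA in the reactive list was not tested.

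Immediate early genes, which cells switch on within minutes of stimulation or tissue dissociation, were called higher in the neuron libraries for 13 of 28 tested and higher in the astrocyte libraries for 1, with a median log2 difference of 0.82. Their summed level was 1049, 1031, 2259, 2427 and 861 TPM in the neuron libraries and 698 to 840 TPM in the astrocyte libraries, so neuron libraries 3 and 4 stood above the other 3. Without the libraries numbered 3 and 4, 7 were called. Junb stood at 35.9, 36.6, 157, 117 and 23.5 TPM against 19.8, 21.1, 17.6, 22.3 and 19.3 TPM (1.46 ± 0.39, adjusted p = 0.00469), and lay under 2-fold without the libraries numbered 3 and 4 (0.62). Klf2 and Klf4, the members with the largest differences, are also transcription factors of endothelium, whose marker sums were given above, and the part of endothelial RNA in this list was not tested. Fos stood at 31.5, 26.5, 131, 193 and 17.4 TPM against 31.3, 52.2, 34.1, 44.9 and 28.8 TPM and was not called (0.47 ± 0.50, adjusted p = 0.444). Gadd45g, a growth-arrest gene, was the 1 member called higher in the astrocyte libraries (-1.55 ± 0.25), and it lay under 2-fold without the libraries numbered 1 and 2 (-0.97).

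Cell cycle genes were called higher in the neuron libraries for 14 of 32 tested and higher in the astrocyte libraries for 0, with a median log2 difference of 0.93. The inhibitor Cdkn1a stood at 152, 206, 243, 183 and 431 TPM in the neuron libraries and at 46.2, 33, 39.6, 30.5 and 31.3 TPM in the astrocyte libraries (2.63 ± 0.22, adjusted p = 4.82e-08). A second inhibitor, Cdkn1c, had 2.15 ± 0.19. The list thus held genes that stop the cycle as well as those that drive it, such as Ccnd2, a G1 cyclin (2.02 ± 0.32), Cdk1, the mitotic kinase, at 44 to 88 TPM against 9.58 to 22.4 TPM (1.77 ± 0.23) and Top2a at 11.2 to 25.7 TPM against 3.94 to 8.42 TPM (1.30 ± 0.25). The proliferation marker Mki67 was low in all libraries, at 1.34 to 1.88 TPM against 0.30 to 0.74 TPM, without overlap. It was under 2-fold on the log2(TPM + 1) scale (0.85 ± 0.15), which understates the change of genes this low. The part of other cells in this list was not tested.

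Housekeeping protein turnover differed little. None of 31 proteasome core and cap subunits was called in limma in either direction, and their log2 differences ran from -0.26 to 0.75 with a median of 0.16. Psmc6, a subunit of the cap, stood at 65.9, 55.8, 76, 86.5 and 82.6 TPM in the neuron libraries and at 65.9, 60.7, 89.8, 72.7 and 73.3 TPM in the astrocyte libraries (0.01 ± 0.15, adjusted p = 0.952). The 250 bases before its start (chr14:45329574-45329823, + strand) are shown as the counterpart of the Slc1a3 and Acta2 stretches, from a gene with nearly the same mean level in both groups, and held 20 CG with a ratio of 0.70.
Psmc6: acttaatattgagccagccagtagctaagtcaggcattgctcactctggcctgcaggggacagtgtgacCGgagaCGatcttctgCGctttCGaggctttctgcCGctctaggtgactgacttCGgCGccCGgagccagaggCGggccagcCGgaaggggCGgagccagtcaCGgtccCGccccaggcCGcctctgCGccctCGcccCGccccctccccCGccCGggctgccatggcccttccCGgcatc
Of 24 tested heat shock proteins, 3 were called each way (12.5% each, near the 13.5% and 13.2% of all tested genes), with a median log2 difference of 0.08. Hspb1, a small heat shock protein abundant in vessels, stood at 458 to 1146 TPM against 125 to 161 TPM (2.32 ± 0.19). Hspb8 went the other way at 19.7 to 39.5 TPM against 55.7 to 79.6 TPM (-1.23 ± 0.18, and -0.98 without the libraries numbered 1 and 2).

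Members of 1 gene family often fell on opposite sides. Among glutamate transporters, Slc1a1, the neuronal form EAAC1, stood at 36.4, 33.5, 37.3, 50.5 and 43.8 TPM in the neuron libraries and at 5.45, 4.99, 10.9, 10 and 9.68 TPM in the astrocyte libraries (log2 difference 2.21 ± 0.21), against -6.79 ± 0.18 for Slc1a3 and -5.21 ± 0.18 for Slc1a2, the glial GLT-1. The GABA transporters Slc6a11, Slc6a13 and Slc6a12 were higher in the astrocyte libraries, with log2 differences of -5.17 ± 0.28, -1.86 ± 0.17 and -1.14 ± 0.14. Of the sodium pump beta subunits, the glial Atp1b2 had -3.84 ± 0.17, while Atp1b1 stood at 89.3 to 269 TPM against 128 to 208 TPM and was not called (0.02 ± 0.25, adjusted p = 0.952). Tight junction claudins split between the endothelial Cldn5 and the myelin claudin Cldn11 (1.81 ± 0.21) on the neuron side and Cldn10 and Cldn12 (-1.12 ± 0.22; -0.98 without astrocyte library 3) on the astrocyte side.

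The same held for nuclear regulators and metabolic isoenzymes. The inhibitors of differentiation, helix-loop-helix proteins that lack a DNA-binding part, divided into Id1 at 856, 948, 1757, 1788 and 1598 TPM in the neuron libraries against 357, 404, 310, 279 and 268 TPM in the astrocyte libraries (log2 difference 2.05 ± 0.21), Id2 (-3.22 ± 0.17) and Id4 (-5.04 ± 0.15). Id3 stood at 688 to 1378 TPM against 1146 to 1628 TPM and was not called (-0.38 ± 0.18, adjusted p = 0.0893). Enolase forms split into the neuronal Eno2 (2.31 ± 0.28) and the general Eno1 (-1.60 ± 0.15). The phosphofructokinases Pfkm (-2.49 ± 0.18) and Pfkp (-1.58 ± 0.24) were higher in the astrocyte libraries, and Pfkl was not called (0.07 ± 0.19). Creatine kinase was present as mitochondrial Ckmt1 at 26.7 to 67 TPM against 4.72 to 12.5 TPM (2.19 ± 0.26) and as cytosolic Ckb at 624 to 963 TPM against 9399 to 10360 TPM (-3.71 ± 0.14). Of 8 tested carbonic anhydrases, Car4 (2.83 ± 0.18), Car13 (2.69 ± 0.21), Car14 (2.15 ± 0.22), Car10 and Car7 were called higher in the neuron libraries, Car2 (-3.16 ± 0.14) and Car8 higher in the astrocyte libraries, and Car11 was not called. Among Ndrg proteins, the hypoxia-responsive Ndrg1 had 2.62 ± 0.18 and the astrocyte marker Ndrg2 -4.45 ± 0.16.

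**Figure D4:**
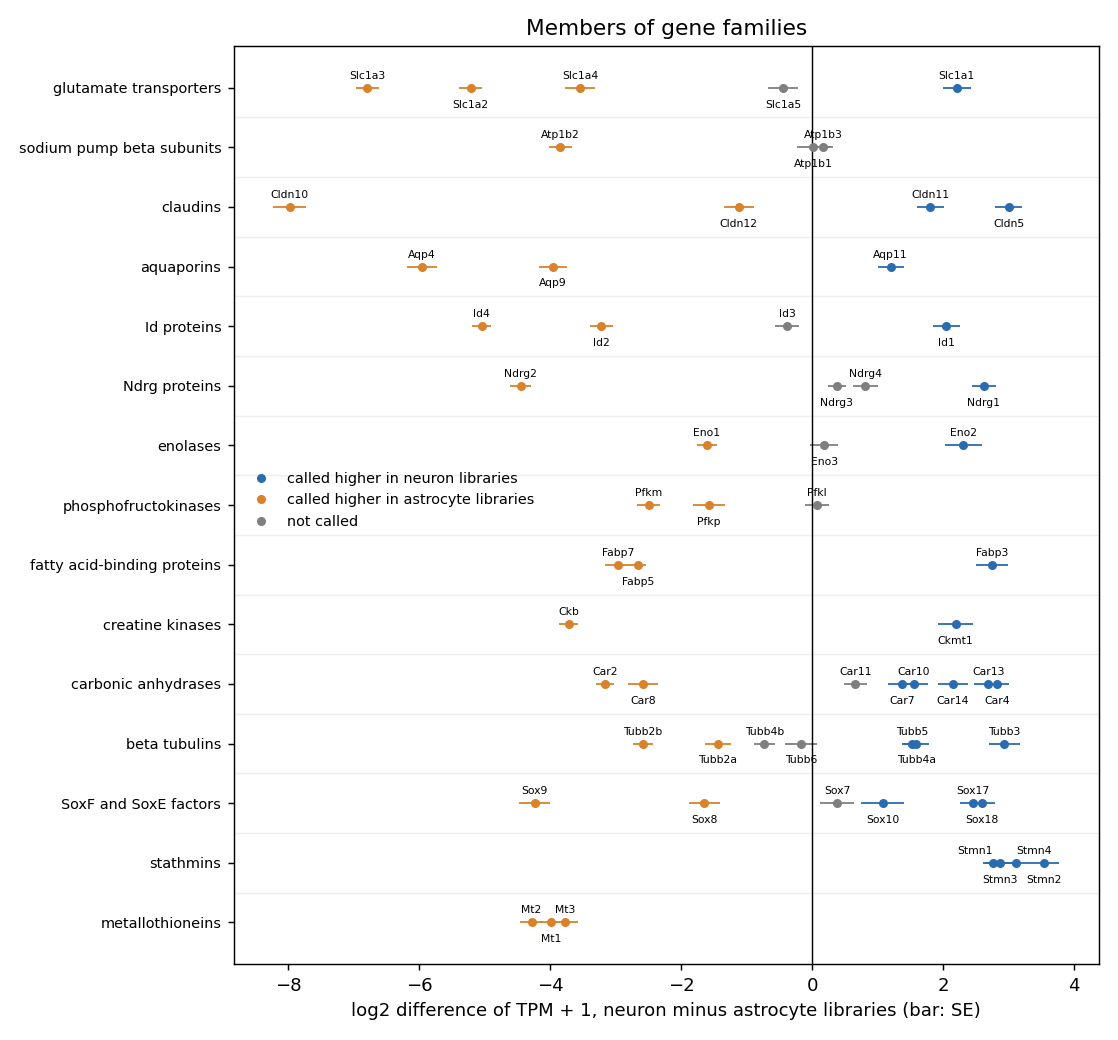
Log2 difference in TPM + 1 (neuron minus astrocyte libraries) of each tested member of 15 gene families, with a bar of 1 SE, blue for genes called higher in the neuron libraries, orange for those called higher in the astrocyte libraries and grey for those not called. Stathmins and metallothioneins keep to 1 side, whereas glutamate transporters run from -6.79 for Slc1a3 to 2.21 for Slc1a1 and claudins from -7.97 for Cldn10 to 3.0 for Cldn5.

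Writers, readers and erasers of DNA methylation, the subject of the series title, were mostly not called. Of 29 tested genes, 2 were called higher in the neuron libraries (6.9%, against 13.5% of all tested genes). Another 5 were called higher in the astrocyte libraries (17.2%, near the 13.2% of all), and the median log2 difference was -0.07. Isocitrate dehydrogenases make 2-oxoglutarate, the cofactor of the TET enzymes that oxidise methylcytosine. Among the 5 genes called higher in the astrocyte libraries were Idh2 at 56 to 94.8 TPM against 253 to 314 TPM (-1.97 ± 0.16), Idh1 (-1.87 ± 0.13), Idh3a and Gadd45g. The methyltransferase Dnmt3a stood at 5.44, 4.28, 6.03, 6.17 and 6.17 TPM in the neuron libraries and at 8.43, 4.74, 14.2, 15 and 10.1 TPM in the astrocyte libraries (-0.71 ± 0.25, adjusted p = 0.0239, under 2-fold). The dioxygenases Tet1, Tet2 and Tet3 had log2 differences of -0.44 ± 0.29, -0.32 ± 0.27 and 0.19 ± 0.21. All 3 had overlapping groups. For chromatin proteins, 7 of 37 tested were called higher in the neuron libraries (18.9%, near the 13.5% of all tested genes). Another 2 were called higher in the astrocyte libraries (5.41%, against 13.2%), and the median was 0.30. Actl6b, the neuron-specific subunit of the BAF remodelling complex, stood at 25.9 to 43.4 TPM against 4.18 to 13.8 TPM (1.90 ± 0.26), while its general counterpart Actl6a was not called (0.09 ± 0.18, adjusted p = 0.717). The 2 higher in the astrocyte libraries were the nucleosome-binding Hmgn3 (-2.06 ± 0.15) and the deacetylase Hdac8 (-1.99 ± 0.19).

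The promoters of called genes had a lower median CG content than those of genes that were not called. For the 8049 tested genes with exactly 1 RefSeq promoter window (250 bases before to 50 after the start, GRCm38.p6), the median ratio of observed to expected CG was 0.77. It was 0.65 for the 974 genes called higher in the neuron libraries, 0.71 for the 1043 called higher in the astrocyte libraries and 0.80 for the 6032 not called. A ratio below 0.4 was found in 27%, 22.1% and 8.82% of them in the same order. For genes at 8-fold or more the medians were 0.35 (22 genes, higher in the neuron libraries) and 0.58 (161 genes, higher in the astrocyte libraries). By list, smooth muscle genes had a median of 0.34 over 13 windows, proteasome subunits 0.80 over 23 and cell cycle genes 0.94 over 23. The letters TATAAA, on either strand, were in 6.99% of all windows, in 10.2% of those of genes higher in the neuron libraries and in 8.05% of those of genes higher in the astrocyte libraries. Slc1a3 and Acta2, with 2 and 4 CG in the stretches above, belong to the CG-poor group, and Tubb3 and Psmc6 do not. These are descriptions of reference sequence, and methylation was not analysed here.

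Within each group the libraries differed by their number. The first principal component of the 10 libraries, 75.9% of the variance, separated neuron from astrocyte libraries. The second, 11.2%, had negative scores for libraries 1 and 2 of both groups (-17.4 to -34.2), positive scores for libraries 3 and 4 of both (18.8 to 30.9) and scores near 0 for both libraries 5. Olfm1, a secreted synaptic protein, stood at 3058, 3484, 612, 545 and 1757 TPM in neuron libraries 1 to 5 and at 433, 674, 125, 185 and 608 TPM in astrocyte libraries 1 to 5 (log2 difference 2.11 ± 0.53, adjusted p = 0.00305). Nrgn, a calmodulin-binding protein of dendrites, stood at 916, 892, 390, 362 and 895 TPM against 220, 356, 59.9, 92.9 and 256 TPM (1.96 ± 0.41, adjusted p = 0.000744). In both genes the libraries numbered 3 and 4 were lowest in both groups, and the groups overlapped for Olfm1. Ctxn1, a neuronal membrane protein, and Serp2, of the endoplasmic reticulum, shared this order and were called with log2 differences of 1.5 ± 0.49 and 1.63 ± 0.39 and overlapping groups. Oligodendrocyte markers, led by myelin basic protein, summed to 7678, 9546, 105, 140 and 1371 TPM in the neuron libraries and 1018, 3544, 564, 397 and 1170 TPM in the astrocyte libraries, also lowest in 3 and 4. Of these markers Mag was called higher in the neuron libraries (1.81 ± 0.69) and Cnp higher in the astrocyte libraries (-1.08 ± 0.39), with overlapping groups for both. Each call rested on single libraries: Mag had an adjusted p of 0.0976 in limma without neuron library 1 and was also lost without neuron library 2 (adjusted p 0.0973) or 5 (0.0827) or astrocyte library 3 (0.0894) or 4 (0.0668), and Cnp was lost without neuron library 3 (log2 difference -0.72) and also without neuron library 4 (-0.86) or astrocyte library 2 (-1.05) or 3 (-1.04). The call of Ctxn1 was lost without astrocyte library 3 (adjusted p = 0.0503). The part of oligodendrocyte RNA in the other results was not tested. Without the libraries numbered 1 and 2, 1783 genes were called higher in the neuron libraries and 1765 higher in the astrocyte libraries. Without those numbered 3 and 4, the numbers were 1765 and 1667.

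**Figure D5:**
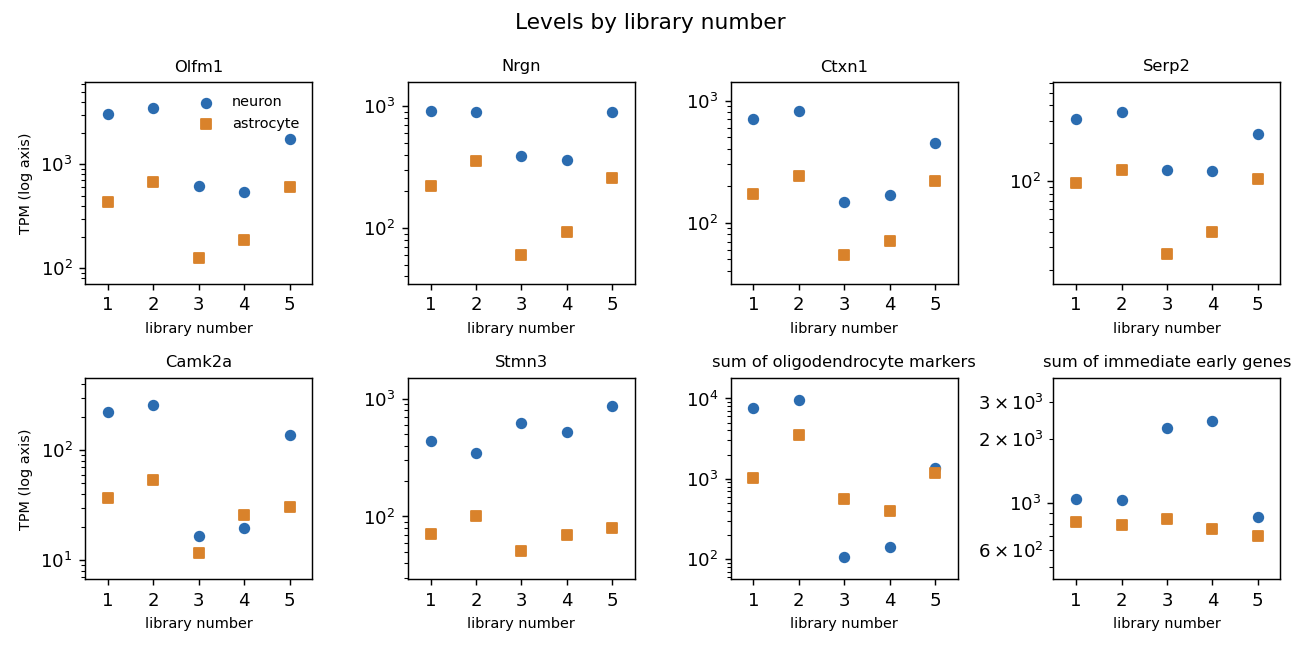
Level in TPM on a log axis against library number for 6 genes and 2 summed lists, blue circles for neuron and orange squares for astrocyte libraries. Olfm1, Nrgn, Ctxn1, Serp2 and Camk2a are lowest in libraries 3 and 4 of the neuron group and in library 3 of the astrocyte group, oligodendrocyte markers fall from 7678 and 9546 TPM in neuron libraries 1 and 2 to 105 and 140 TPM in 3 and 4, immediate early genes are highest in neuron libraries 3 and 4, and Stmn3 does not show this order.

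Some called genes had widely spread libraries within a group. AL731706.2, a predicted gene, was listed at 142, 0, 139, 135 and 145 TPM in the neuron libraries and at 0, 20.4, 25.1, 0 and 0 TPM in the astrocyte libraries, and its call was lost with no filter (adjusted p = 0.0637 in limma) and without the libraries numbered 3 and 4 (0.128). Sftpc, surfactant protein C, stood at 41, 41.5, 1.27, 1.06 and 3.95 TPM in the neuron libraries and at 0 to 0.81 TPM in the astrocyte libraries (2.50 ± 0.71, adjusted p = 0.00711), and it lay under 2-fold without the libraries numbered 1 and 2 (0.95). Ide, the insulin-degrading enzyme, stood at 15.1, 11.9, 62.6, 55.5 and 53 TPM in the astrocyte libraries against 7.42 to 11.8 TPM in the neuron libraries (-1.70 ± 0.38). Dbp, a clock output factor, stood at 95, 106, 236, 212 and 31.4 TPM in the neuron libraries against 312 to 360 TPM in the astrocyte libraries (-1.58 ± 0.38, adjusted p = 0.00204), and it was not called without the libraries numbered 1 and 2 (-1.55, adjusted p = 0.0585 in limma).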

How the data were processed

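RNA of 5 neuron and 5 astrocyte samples of mouse cortex was sequenced after cDNA amplification and polyA enrichment, per the labels' protocols. The values are TPM per gene as deposited by the authors in 1 table of 20610 genes. Trim Galore 0.6.4, STAR 2.7.1a, RSEM 1.2.28, DESeq2 1.36.0 and the build mm10 are named, per the submitters' processing notes, without their roles. TPM keep no sequencing depth, so the depth behind each value is unknown, and a gain in abundant genes lowers all others. In these 10 libraries 1658 genes had no transcript listed, and 63 rows shared a symbol with another row. Reads of near-identical genes (Ly6 genes, tubulins, metallothioneins) can be divided uncertainly.

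Genes at 1 TPM or more in at least 5 of the 10 libraries were tested with limma 3.58.1 (R 4.3.3, trended variance) on log2(TPM + 1), and p-values were adjusted by Benjamini-Hochberg over all 12837 genes. Errors after ± are the fit's standard errors. On simulated data with these 12837 genes, 96 of 100 genes changed by 1.5 and 98 of 100 changed by 3 on the log2 scale were called, as were 3 unchanged genes. The changed genes were drawn only from those above a low mean level, and the simulated libraries varied independently of each other. Recovery of low genes, and the effect of differences by library number, were therefore not measured. Far fewer genes were changed in the simulation than the 7068 that passed the p threshold in the data. The 3 unchanged genes called thus do not give the error rate of the calls in the data. Figures and tables were made with Python 3.11.15, numpy 2.4.6, pandas 2.3.3 and matplotlib 3.10.9.

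The comparison, the gene lists and the families were chosen with earlier results of these data known. Named genes are the 15 with the largest differences in each direction without overlap, the 10 most abundant called in each direction, up to 10 on in 1 group and off in the other, the 10 called genes with the largest spread in each group, and from each list or family up to 6 with the largest differences, those called against its majority and, for 10 members or fewer, any member. Other genes, such as Actl6a, Cd24a, Dcx, Dlg4, Dnmt3a, Elovl2, Fads2, Fos, Gli3, Kdr, Ldha, Ldhb, Map1b, Map2, Mapt, Mertk, Psmc6, Pvalb, Sparcl1, Srr, Top2a, Vtn and the TET genes, were chosen after their values were seen. The fit was repeated with 0.1 as pseudocount, a 5 TPM filter, no filter, median-of-ratios scaling, quantile normalization, a fit over all 15 libraries, no variance trend, a replicate block and leaving out each library. Leaving out the libraries numbered 1 and 2 or 3 and 4 was added after seeing the data. Promoter windows of 300 bases came from RefSeq (GRCm38.p6), for the 8049 tested genes with exactly 1 window.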

Additional observations from a re-analysis of the deposited data

Results flagged for a closer look

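One library stood apart from the other 4 of its group, by a gap larger than Dixon's 95% critical value (0.71 of the group's range), in 25 of 504 combinations of a named gene and a group, where chance alone flags about 1 in 20 groups. In the neuron group, library 5 was high for Sst (366.9 TPM, the others at most 127.8), Mapt (95.42, at most 59.5), Mt3 (668, at most 396), Lhx2 (10.19, at most 4.32), Car10 (17.99, at most 10.47) and Grm3 (6.15, at most 3.61). Neuron library 3 was high for Vcam1 (117 TPM, the others at most 45.65) and Bmp6 (3.93, at most 2.16). Neuron library 2 was high for Cbs (3.93 TPM, at most 1.68) and listed at 0 for AL731706.2 (the others at least 135.3). Neuron library 1 was high for Srr (25.09 TPM, at most 17.77) and neuron library 4 for Cd44 (1.78, at most 0.79).

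In the astrocyte group, library 4 was high for Acta2 (144.8 TPM, the others at most 92.99), Ccnd2 (495.6, at most 187.8) and Tnr (1.65, at most 0.85). Astrocyte library 3 was high for Acsl5 (5.63 TPM, at most 3.34) and low for Cpe (8460, at least 9028) and Tmsb4x (3188, at least 3700). Astrocyte library 2 was low for Emx2 (5.54 TPM, at least 7.9), Higd1b (340.5, at least 405.4), Hspb1 (125.1, at least 153.2) and Slc1a2 (172.3, at least 234.8). Astrocyte library 1 was high for Crip1 (371 TPM, at most 291.5). Astrocyte library 5 was low for Nr2f1 (13.41 TPM, at least 16.53) and Serpina3n (9.83, at least 13.13). Among summed lists, astrocyte library 2 was high for oligodendrocyte markers (3544 TPM, the others at most 1170) and astrocyte library 5 for microglia markers (56.7, at most 41.84).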

How the results depend on the processing

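The 2 totals, 1734 genes higher in the neuron libraries and 1693 higher in the astrocyte libraries, stayed within 1.5 times under all 20 alternatives. They were 2165 and 2066 with a pseudocount of 0.1, 1268 and 1369 with the 5 TPM filter, and 1833 and 1540 with quantile normalization. Leaving out 1 library gave 1664 to 1836 and 1540 to 1859. The median of all genes shifted by no more than 0.06 on the log2 scale. No log2 difference of a named gene changed sign where either fit called it, but calls of named genes were lost: 12 without the libraries numbered 1 and 2, 9 without those numbered 3 and 4, 6 with quantile normalization, 4 each with median-of-ratios scaling and no filter, 3 with all 15 libraries, 1 with a pseudocount of 0.1, and 0 to 6 when 1 library was left out. At most 6 were gained, with a pseudocount of 0.1. Mag, Cnp and Ctxn1 were each lost with all 15 libraries (adjusted p 0.113, 0.24 and 0.0732 in limma), with median-of-ratios scaling (0.0775, 0.0974 and 0.0602) and with no filter (0.0963, 0.0815 and 0.0574). Vegfb was lost with median-of-ratios scaling (0.0548) and, like Mag, Cnp, Higd1b, Ifitm1 and Nr2f1, with quantile normalization.

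A few list counts of genes higher in the neuron libraries moved by over 1.5 times. RNA-binding proteins had 13 with a pseudocount of 0.1 (8 in the main analysis). With the 5 TPM filter, which tests fewer genes, dense-core vesicle genes had 5 (10), postsynaptic density genes 4 (7) and projection neuron genes 5 (8). Pericyte genes had 5 without the libraries numbered 1 and 2, 1 without those numbered 3 and 4, and 1 to 5 (main 3) when 1 library was left out. Immediate early genes had 7 without the libraries numbered 3 and 4 (13). Beside these fewer genes or libraries, the cause was not tested.

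With the replicate block the totals were 1750 and 1692, and 3426 of the 3427 calls were kept. The libraries were not taken as paired, since the labels do not say that a number marks a shared animal. The second principal component followed the number in both groups. Deviations of same-numbered libraries correlated by -0.00129, 0.19, 0.24, 0.209 and -0.0357 for numbers 1 to 5. Not every library correlated best with its own number. TPM give no depth, so low genes carry an unknown counting error.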
